A study of Mus musculus with 24 samples.

Results

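Carboxylesterases of mouse liver were followed across 24 poly(A) RNA-seq libraries of whole liver. The members described here were Ces1c, Ces1d, Ces1e, Ces1f, Ces1g, Ces2a, Ces2c, Ces2e, Ces3a and Ces3b, chosen by symbol, and all 10 were found among the 23411 genes of the count table. The libraries came from 8 groups of 3 male mice each, 16 to 20 weeks old, on a mixed 129/Sv plus C57BL/6 background. Wild-type (WT) mice were set against α7HMZ mice, exon swap animals whose Hnf4a gene gives P2-HNF4α in place of P1-HNF4α, so that the liver makes only the P2 form. Both genotypes were fed ad libitum and killed at 10:30, at 13:30 or at 20:30, and a further pair of groups was killed at 10:30 after 12 h without food. Killing at 10:30 and 13:30 fell in the light phase and at 20:30 in the dark phase. The swap is present in every tissue and not in hepatocytes alone, so the comparisons are between animals that differ in all organs. Flow cell 375 held the WT fed 10:30, α7HMZ fed 10:30 and WT fasted libraries, and flow cell 377 held the other 5 groups.

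Carboxylesterases hydrolyse esters, amides and thioesters, and most are held in the lumen of the endoplasmic reticulum of hepatocytes. They clear ester drugs and prodrugs, and several also hydrolyse triacylglycerol, diacylglycerol or cholesteryl esters and so take part in the supply of lipid for very low density lipoprotein. The mouse family grew by tandem duplication, which left closely related genes side by side. HNF4α is a nuclear receptor that is central to the expression of genes for hepatic lipid and drug metabolism. P1-HNF4α is the form of normal adult liver, while P2-HNF4α is found in fetal liver, in stomach, in pancreas and, with P1-HNF4α, in intestine.

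All 10 members lie on chromosome 8 of GRCm38, in 3 blocks. The 5 Ces1 members run on the minus strand from 93099015 to 93337308, a block of 0.238 Mb. The 3 Ces2 members lie on the plus strand between 104734003 and 104934672, a block of 0.201 Mb that begins 11.4 Mb from the end of the Ces1 block. Ces3a and Ces3b follow on the plus strand between 105048601 and 105093929. Because the genes are duplicates, reads of 75 bases can be shared between them, and the share of each gene's transcript that is found in another transcript at that length was counted. Ces1d, Ces1f and Ces1g shared no 75-base word with another gene, and Ces2e shared 0.343% of its words. Ces2c shared 25.9% of its words, nearly all with Ces2d-ps, an adjacent unprocessed pseudogene that holds 24.9% of the words of Ces2c. Ces3a shared 18.3% and Ces3b 15.4%, each with the other, and Ces2a shared 14.8% with Gm7208, a gene that was not among the counted genes. Values of Ces2a, Ces2c, Ces3a and Ces3b are therefore uncertain to the extent that the counting split or lost such reads.

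The sequences before the start sites are shown for Ces2e and Ces2c, the members with the largest genotype differences given below, for Ces2a, which lies in the same block, and for Ces1c and Ces1e, the most abundant member and the Ces1 member that was lower in α7HMZ liver at all 3 fed times. They are the 250 bases before the RefSeq start (GRCm38.p6), written from 5′ to 3′ in the direction of the gene. In the Ces2 windows capitals mark the longest run that the window shares with another of the 3, and in the Ces1 windows they mark the letters TTATGTAA.
Ces2e, chr8:104926010-104926259, plus strand: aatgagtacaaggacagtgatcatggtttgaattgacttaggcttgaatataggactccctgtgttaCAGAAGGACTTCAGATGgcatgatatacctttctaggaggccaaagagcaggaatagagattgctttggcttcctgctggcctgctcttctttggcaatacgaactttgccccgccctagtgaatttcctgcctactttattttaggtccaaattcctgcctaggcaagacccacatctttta
Ces2a, chr8:104733753-104734002, plus strand: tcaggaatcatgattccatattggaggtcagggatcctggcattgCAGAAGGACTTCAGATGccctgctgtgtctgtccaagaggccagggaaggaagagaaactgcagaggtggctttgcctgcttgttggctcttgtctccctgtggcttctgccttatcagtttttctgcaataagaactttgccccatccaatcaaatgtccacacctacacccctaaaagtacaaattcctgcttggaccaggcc
Ces2c, chr8:104846818-104847067, plus strand: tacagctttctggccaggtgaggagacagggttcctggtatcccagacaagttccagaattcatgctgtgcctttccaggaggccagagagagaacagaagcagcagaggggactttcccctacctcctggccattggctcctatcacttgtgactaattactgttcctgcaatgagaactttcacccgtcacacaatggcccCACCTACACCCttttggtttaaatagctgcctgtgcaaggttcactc
Ces1c, chr8:93131284-93131533, minus strand: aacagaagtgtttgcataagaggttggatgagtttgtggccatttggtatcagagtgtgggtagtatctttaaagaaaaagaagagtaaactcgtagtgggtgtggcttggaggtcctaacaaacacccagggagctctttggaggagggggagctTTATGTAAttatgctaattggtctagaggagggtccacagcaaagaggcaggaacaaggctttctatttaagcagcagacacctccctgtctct
Ces1e, chr8:93229620-93229869, minus strand: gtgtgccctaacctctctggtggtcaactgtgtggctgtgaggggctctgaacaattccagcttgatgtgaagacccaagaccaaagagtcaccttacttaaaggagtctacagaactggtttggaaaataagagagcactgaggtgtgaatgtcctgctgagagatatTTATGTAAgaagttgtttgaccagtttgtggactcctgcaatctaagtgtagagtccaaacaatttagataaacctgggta

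The longest exact run common to Ces2a and Ces2e was 17 bases, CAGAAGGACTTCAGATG, which begins 205 bases before the Ces2a start and 183 bases before that of Ces2e. Ces2a and Ces2c shared CACCTACACCC, 11 bases that begin 43 and 47 bases before their starts. Promoter windows of 300 bases, ending 50 bases after the start, were held for 7 members, and those of Ces1d, Ces1f and Ces3a were not. The letters TTATGTAA, a sequence of the type bound by PAR bZIP factors such as DBP, were found on either strand in 3 of the 7 windows, those of Ces1c (from base -94), Ces1e (-81) and Ces1g (-232), and in 0.938% of all 32851 promoter windows of that length. These are all the Ces1 member windows held, and no Ces2 or Ces3 member window had the letters. They were also in the windows of Ces1a (-198) and Ces1b (-84 or -7 by start site), but not of Ces1h. The genes are duplicates, so their windows are not independent and the shares are no test. CAAAGTNCA, an HNF4-type sequence, was in 0 of the 7 and in 1.41% of all windows. Neither CACGTG (E-box, 7.15% of all windows) nor AGTTCA (nuclear receptor element, 14% of all) was in any of the 7. AGTTCA is contained in CAAAGTNCA where N is T. Absence of these letters says only that they were not in the window searched, as only exact matches were counted. The printed Ces2e and Ces2a windows hold GAACTTTG, which is TGNACTTTG, the reverse complement of CAAAGTNCA, without its first letter. How often such near matches occur in all windows was not counted.

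Total counts per library ran from 8545959 to 28445590 (median 18875060). Counts per gene do not separate the P1 and P2 forms of Hnf4a and so give no check of the genotype labels, and the summed Hnf4a transcript differed by a log2 fold change of 0.26 ± 0.096 in the fed average (adjusted p = 0.058). All 8 hepatocyte markers were detected in every group, with a summed level of 82786 to 164275 CPM (the count scaled to the library size, corrected by TMM factors). Their sum was lower in α7HMZ than in WT liver at 10:30 in the fed state, at 100911 to 118538 CPM against 123874 to 153545 CPM, at 20:30 (103538 to 127316 against 131260 to 159663 CPM) and in fasted mice (85108 to 98873 against 138391 to 164275 CPM), while the ranges overlapped at 13:30. Among the 8, Apob was lower by 0.64 ± 0.0969 (SE) on the log2 scale over the 3 fed times (adjusted p = 5.43e-05). Hnf4a, also among the 8, went the other way, with the value of 0.26 given above, and was not called. The other hepatocyte markers are given only in the sum, and Apob and Hnf4a do not show how each of them moved. The summed level of 6 bile duct markers was higher in α7HMZ at each fed time without overlap, at 58.9 to 71 CPM against 47.8 to 55.9 CPM at 10:30, 49.2 to 65.1 against 36.3 to 40.5 CPM at 13:30 and 70.8 to 90.3 against 41.6 to 70.1 CPM at 20:30. The 20:30 sums include the libraries of both genotypes with high Krt19 named below. In fasted mice the bile duct sums overlapped, at 52.7 to 67.8 CPM in α7HMZ against 60.5 to 69.9 CPM in WT. At 10:30 in fed mice the sums of 5 endothelial markers (159 to 197 against 223 to 267 CPM) and 5 stellate cell markers (179 to 250 against 260 to 336 CPM) were lower in α7HMZ. The endothelial sum was higher in α7HMZ at 13:30 (193 to 203 against 169 to 189 CPM) and in fasted mice (178 to 228 against 104 to 171 CPM). At 20:30 the endothelial sums overlapped, and the stellate sums overlapped at 13:30, at 20:30 and in fasted mice. The part of these markers in the genotype differences was not tested. In bulk tissue, fewer cells of a type and less RNA per cell cannot be told apart. 1 library, α7HMZ fed 10:30 replicate 1, had 50.8% of its counts on Rn45s, the ribosomal RNA precursor, and α7HMZ fed 20:30 replicate 3 had 3.76%, against 0.064 to 0.405% in the other 22. The bile duct marker Krt19 and the pancreatic marker Ctrb1 were highest in WT fed 20:30 replicate 2 and in α7HMZ fed 20:30 replicates 1 and 3, at 12.6 to 18.5 CPM and 1.87 to 5.04 CPM. Next came WT fasted replicates 1 (7.12 and 0.396 CPM) and 2 (4.63 and 0.535) and WT fed 20:30 replicate 3 (4.3 and 0.321), which were kept. Results were recomputed without 4 libraries, α7HMZ fed 10:30 replicate 1, WT fed 20:30 replicate 2 and α7HMZ fed 20:30 replicates 1 and 3. This left α7HMZ fed 20:30 with replicate 2 alone and WT fed 20:30 with replicates 1 and 3, so the genotype by time calls of this setting are not given. Values are given beside the other results whose calls this changed.

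Levels of the family spanned more than 2 orders of magnitude when set per length. In WT fed liver at 10:30, Ces1c, the esterase that is secreted into mouse plasma, stood at 1239 ± 42.3 CPM per kb of exon (SD, n = 3), and Ces3a at 888 ± 32.3. Ces3b followed at 326 ± 25 CPM per kb, Ces1d, also known as triacylglycerol hydrolase, at 266 ± 16.4, and Ces2a at 212 ± 9.3. Ces1f stood at 147 ± 8.48 CPM per kb, Ces1e at 111 ± 8.59 and Ces1g at 101 ± 7.05, and the last 2 differed by less than 2 SD. Ces2e stood at 72 ± 5.05 CPM per kb and Ces2c at 8.77 ± 0.905. By mean CPM not set per length, Ces1c was the 44th and Ces2c the 5244th of 23411 genes in that group.

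The head of this order was the same in all 8 groups, with Ces1c first and Ces3a second, and Ces2e was ninth and Ces2c last in the 4 WT groups. In α7HMZ fed liver at 10:30, Ces2e stood at 2.94 ± 0.64 CPM per kb and Ces2c at 2.31 ± 0.856, which overlapped, and in the other 3 α7HMZ groups the mean of Ces2e lay below that of Ces2c. Outside the WT fed 10:30 group, the order of Ces3b, Ces1d, Ces1f and Ces2a depended in part on whether all exons or 1 transcript set the length, so no order is given among them. By mean CPM, Ces2e moved from the 671st place in WT fed 10:30 liver to the 8224th in α7HMZ.

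**Figure D1:**
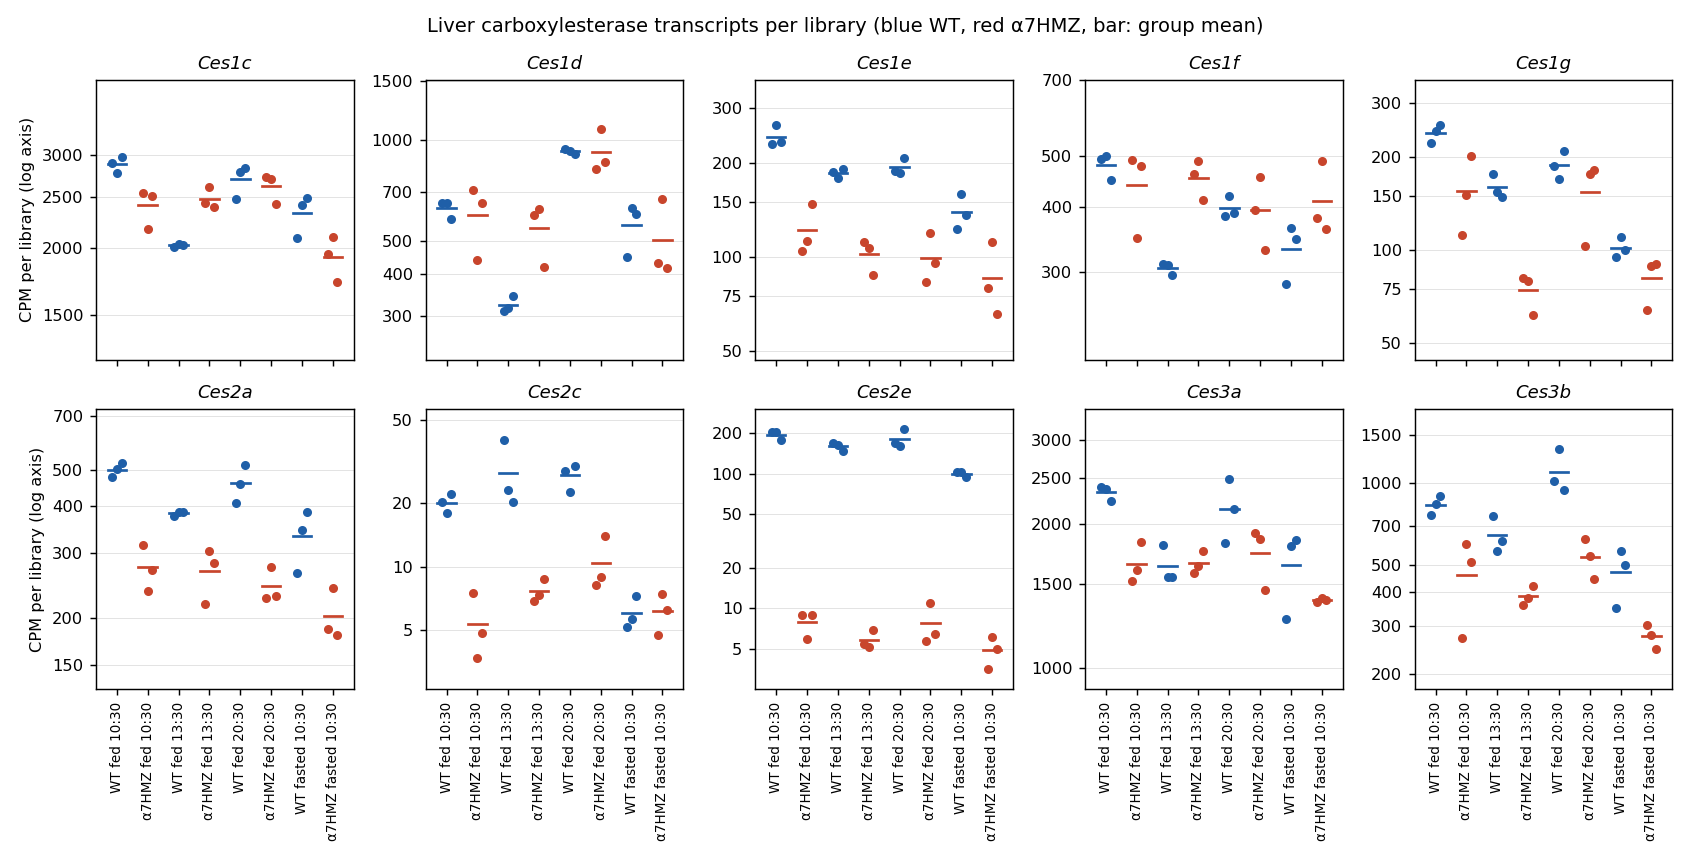
Level of each of the 10 carboxylesterase members in each of the 24 libraries, in TMM-scaled CPM on a log axis, by group (3 mice each), with points for single libraries (WT blue, α7HMZ red) and short lines for group means. Ces2e separates the genotypes in every feeding state, with 148 to 216 CPM in WT fed libraries and 5.19 to 11 CPM in α7HMZ fed libraries, while Ces1c stays between 1728 and 2967 CPM throughout.

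Summed over the 10 members, WT fed liver held 8358 ± 9.36 CPM (SD, n = 3) at 10:30, 5858 ± 255 at 13:30 and 8334 ± 663 at 20:30, and α7HMZ fed liver held 6133 ± 472, 5989 ± 219 and 6732 ± 618. The genotypes overlapped in this sum at 13:30, and at 10:30 and 20:30 every α7HMZ library lay below every WT library. The 3 Ces2 members together stood at 715 ± 13 CPM in WT and 287 ± 42.4 CPM in α7HMZ at 10:30. As a share of the family's counts at 10:30, Ces2e was 2.32% in WT and 0.128% in α7HMZ liver, and Ces1c was 34.5% and 39.3%.

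**Figure D2:**
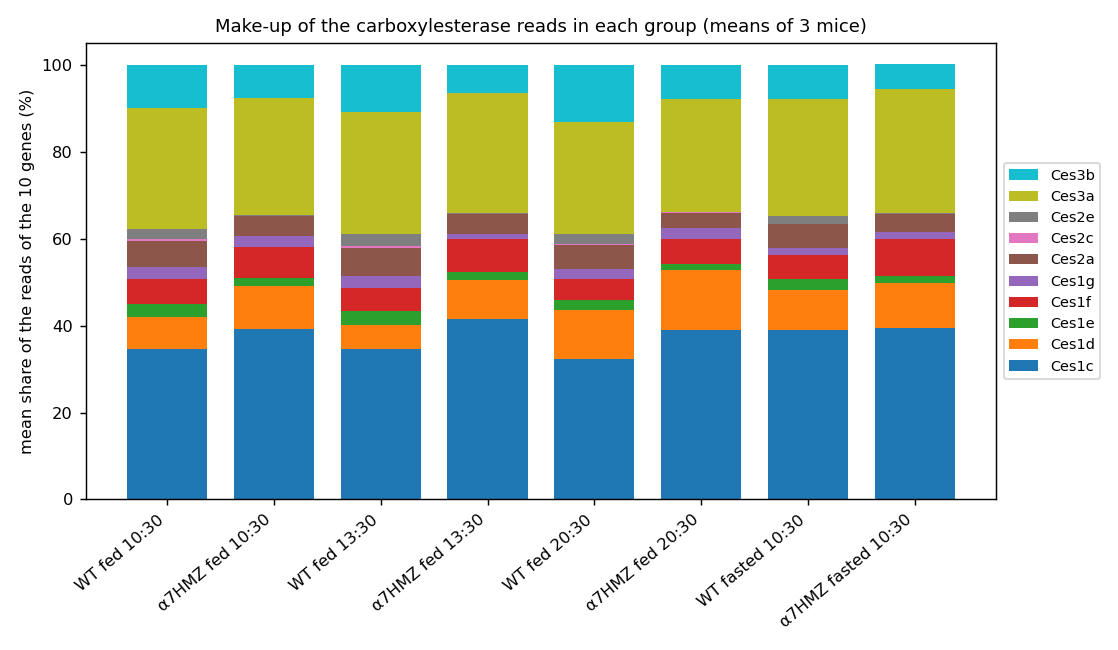
Share of the counts of the 10 members that fell to each member (percent, group means of 3 mice), by group. Ces1c and Ces3a take the largest shares in all 8 groups, and the Ces2e share at 10:30 is 2.32% in WT and 0.128% in α7HMZ fed liver.

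The first comparison asked which carboxylesterases depend on the HNF4α form in fed mice. At 10:30, 7 of the 10 members were lower in α7HMZ than in WT liver and 0 were higher by edgeR's quasi-likelihood test at an adjusted p under 0.05, against 8.98% of all 13334 genes tested that were lower and 8.36% that were higher. At 13:30, 6 were lower (6.61% of all genes) and 2 were higher (6.19%). At 20:30, 5 were lower (10.8%) and 0 higher (8.29%), and in the average over the 3 times 7 were lower (13.2%) and 0 higher (13.3%). The median log2 fold change of the members was -0.74, -0.63 and -0.61 at the 3 times, and that of all genes was 0.035, 0.0028 and 0.023. Both genotypes shared a flow cell at each fed time. Each fed time has its own WT and α7HMZ mice, and the average reuses all 18 of them. With offsets for GC content and full quantile scaling, 4 members were lower and 0 higher at 10:30, and 4 lower and 3 higher at 13:30. At 20:30, 4 were then lower and 1 higher, and in the average 6 lower and 3 higher.

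**Figure D3:**
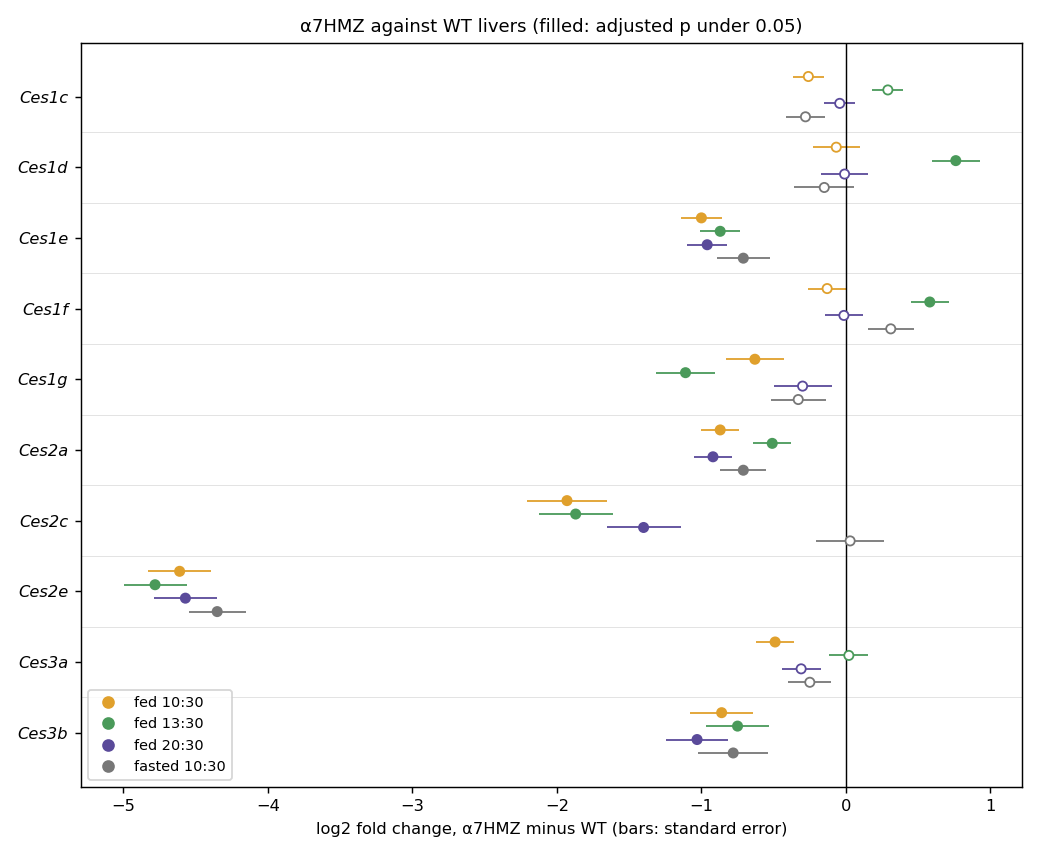
Difference of α7HMZ from WT liver for each member (log2 fold change, fed mice at 3 times and fasted mice), with bars of 1 SE to each side and filled points for an adjusted p under 0.05. Ces2e lies between -4.35 and -4.78 in all 4 comparisons and Ces1c between -0.28 and 0.29.

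Ces2e, an esterase of liver and intestine, had the largest difference of the family. At 10:30 the WT libraries held 202, 202 and 179 CPM, and the α7HMZ libraries 8.99, 5.93 and 8.85 CPM. At 13:30 the values were 170, 163 and 148 CPM in WT and 5.46, 5.19 and 6.94 CPM in α7HMZ, and at 20:30 they were 168, 159 and 216 CPM and 5.74, 11 and 6.43 CPM. The genotypes did not overlap at any time, and the lowest WT library stood above the highest α7HMZ library by more than 10 times. The log2 fold change was -4.61 ± 0.218 (SE) at 10:30 (24.4-fold lower, adjusted p = 9.50e-11), -4.78 ± 0.218 at 13:30 (27.6-fold, adjusted p = 4.78e-11) and -4.57 ± 0.216 at 20:30 (23.8-fold, adjusted p = 8.86e-11). Averaged over the 3 times it was -4.66 ± 0.125 (25.2-fold, adjusted p = 5.65e-15), the 15th largest of 13334 genes by size. Without the 4 libraries named above the average was -4.54. A test of genotype by time gave an adjusted p of 0.826 for Ces2e, and the 3 intervals of 2 SE overlapped.

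Ces2e is also an intestinal gene, so markers of intestinal epithelium were read beside it. Of the 5, Fabp2 carried the sum, with 33.9 to 46 CPM in WT and 21.1 to 41.4 CPM in α7HMZ fed 10:30 libraries, and it was lower in α7HMZ over the fed times by 1.05 ± 0.122 on the log2 scale (adjusted p = 2.69e-06). Vil1 was at most 1.2 CPM in any library. Krt20 was at most 0.475 CPM, Cdh17 at most 0.297 CPM and Lct at most 0.119 CPM. Fabp2 was higher in fasted than in fed WT liver by a log2 fold change of 1.04 ± 0.218 (adjusted p = 0.00445). The part of these markers in the Ces2e values was not tested.

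Ces2c, whose product is a triacylglycerol and diacylglycerol hydrolase of the endoplasmic reticulum, was the second member by size of the difference. In WT the fed libraries held 20.2, 18 and 22.2 CPM at 10:30, 40.2, 23.1 and 20.3 CPM at 13:30, followed by 28.6, 22.6 and 30.2 CPM at 20:30. The α7HMZ libraries held 7.49, 3.66 and 4.81 CPM, 6.87, 7.3 and 8.71 CPM, and 8.13, 8.97 and 14 CPM. All 9 α7HMZ fed libraries lay below all 9 WT fed libraries. The log2 fold change was -1.93 ± 0.278 at 10:30 (adjusted p = 9.12e-05), -1.87 ± 0.257 at 13:30 (adjusted p = 6.29e-05) and -1.40 ± 0.256 at 20:30 (adjusted p = 9.25e-04), and -1.74 ± 0.152 on average (3.33-fold lower, adjusted p = 7.23e-08). Since Ces2c shares words with Ces2d-ps, both are given: Ces2d-ps was at 9.3, 10 and 8.81 CPM in WT and 2.73, 1.62 and 2.49 CPM in α7HMZ fed 10:30 liver, with an average log2 fold change of -1.66 ± 0.139 (adjusted p = 3.94e-08). Reads of this pair cannot be fully told apart.

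Ces2a, a further liver esterase of the same block, fell less. It stood at 478, 503 and 521 CPM in WT and 315, 237 and 270 CPM in α7HMZ liver at 10:30, at 377, 385 and 386 CPM against 219, 304 and 281 CPM at 13:30, and at 409, 458 and 515 CPM against 227, 275 and 229 CPM at 20:30. The groups were apart at each time. The log2 fold change was -0.87 ± 0.131 at 10:30, -0.51 ± 0.13 at 13:30 and -0.92 ± 0.131 at 20:30, and -0.77 ± 0.0756 on average (1.70-fold lower, adjusted p = 3.39e-07). The call at 13:30 (adjusted p = 0.0138) was lost without α7HMZ fed 13:30 replicate 1 (adjusted p = 0.0777) and with GC and full quantile offsets (-0.33, adjusted p = 0.0825).

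Within the Ces1 block the members did not move alike. Ces1e, or egasyn, the protein that holds β-glucuronidase in the endoplasmic reticulum, stood at 230, 265 and 235 CPM in WT and 105, 113 and 148 CPM in α7HMZ liver at 10:30. At 13:30 it stood at 188, 180 and 192 CPM against 112, 107 and 87.7 CPM, and at 20:30 at 189, 186 and 208 CPM against 83.3, 120 and 96.1 CPM. Again no library of one genotype reached the range of the other at the same time. It was 2-fold lower in α7HMZ at 10:30 (SE 0.14 on the log2 scale), the log2 fold change was -0.87 ± 0.14 at 13:30 and -0.96 ± 0.14 at 20:30, and it was -0.94 ± 0.0809 on average (1.92-fold lower, adjusted p = 5.50e-08).

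Ces1g, an esterase with a role in hepatic lipid balance, was lower in α7HMZ at 2 of the 3 times. The WT libraries held 222, 244 and 255 CPM at 10:30, 177, 154 and 149 CPM at 13:30, followed by 188, 170 and 210 CPM at 20:30, and the α7HMZ libraries 112, 151 and 202 CPM, 81, 79.4 and 61.7 CPM, and 103, 177 and 182 CPM. The genotypes were apart at 10:30 and 13:30 and overlapped at 20:30. The log2 fold change was -0.63 ± 0.201 at 10:30 (adjusted p = 0.0384), -1.11 ± 0.203 at 13:30 (adjusted p = 0.0011) and -0.30 ± 0.201 at 20:30 (adjusted p = 0.316). Averaged, it was -0.68 ± 0.116 (1.60-fold lower, adjusted p = 2.12e-04). The 10:30 call did not outlast the loss of any one of 5 libraries: it ended without each WT replicate (adjusted p from 0.0612 to 0.106) and without α7HMZ replicate 1 (0.117) or 2 (0.103), of which replicate 1 is the library rich in Rn45s. It also ended with only the groups compared (0.0663) and with GC and full quantile offsets (0.0706).

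Ces1c, Ces1d and Ces1f, the other members of that block, were not called in the fed average. Ces1c stood at 2898, 2773 and 2967 CPM in WT and 2541, 2179 and 2514 CPM in α7HMZ liver at 10:30, at 2009, 2040 and 2032 CPM against 2440, 2610 and 2396 CPM at 13:30, and at 2479, 2780 and 2835 CPM against 2731, 2702 and 2424 CPM at 20:30. The α7HMZ libraries lay below WT at 10:30, above WT at 13:30 and overlapped it at 20:30. The average was -0.0016 ± 0.0616, with an interval of 2 SE from -0.12 to 0.12, and no single time passed (adjusted p = 0.11, 0.0826 and 0.815). DESeq2 called it lower at 10:30 (-0.26, adjusted p = 0.0214) and higher at 13:30 (0.28, adjusted p = 0.0136), and at 13:30 it also passed with upper quartile factors (0.0387), with only the groups compared (0.0244) and with GC and full quantile offsets (0.66, adjusted p = 1.27e-04). With GC and full quantile offsets the average was 0.40 (adjusted p = 2.80e-05), so the sign and the call of the Ces1c average rest on the scaling.

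For Ces1d and Ces1f, α7HMZ liver was higher at 13:30. Ces1d stood at 311, 318 and 344 CPM in WT and 601, 625 and 421 CPM in α7HMZ liver at that time, a log2 fold change of 0.76 ± 0.165 (1.70-fold, adjusted p = 0.00428). Ces1f, a microsomal esterase, stood at 311, 310 and 296 CPM against 463, 489 and 413 CPM, a log2 fold change of 0.58 ± 0.131 (1.49-fold, adjusted p = 0.00618). At 10:30 the values overlapped, with Ces1d at 651, 651 and 584 CPM against 711, 440 and 649 CPM and Ces1f at 494, 501 and 450 CPM against 493, 348 and 480 CPM. At 20:30 they overlapped too, and the log2 fold changes were -0.0093 ± 0.164 for Ces1d and -0.014 ± 0.131 for Ces1f. The averages of 0.23 (2 SE from 0.039 to 0.42, adjusted p = 0.0847) and 0.14 (-0.0062 to 0.30, adjusted p = 0.175) were not called. With GC and full quantile offsets they were 0.52 (adjusted p = 4.53e-04) and 0.39 (adjusted p = 3.72e-04), so that both calls depend on the scaling, and with upper quartile factors Ces1d passed at 0.0421. Without α7HMZ fed 10:30 replicate 2 they were 0.29 (adjusted p = 0.0152) and 0.19 (adjusted p = 0.0421), and without α7HMZ fed 13:30 replicate 3 the Ces1d average was 0.28 (adjusted p = 0.0259).

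The Ces3 pair, both abundant esterases of liver, were lower in α7HMZ mice in the fed average. Ces3b stood at 768, 841 and 896 CPM in WT and 270, 598 and 514 CPM in α7HMZ liver at 10:30, at 761, 566 and 612 CPM against 357, 378 and 420 CPM at 13:30, and at 1016, 1340 and 945 CPM against 624, 543 and 446 CPM at 20:30. It was lower in α7HMZ at every time with no overlap, by a log2 fold change of -0.86 ± 0.216, -0.75 ± 0.216 and -1.03 ± 0.217, and -0.88 ± 0.125 on average (1.84-fold lower, adjusted p = 2.90e-05). At 13:30 the call (adjusted p = 0.0284) ended without any one of 5 libraries, WT replicate 1 (0.139) or 3 (0.0553) and α7HMZ replicate 1 (0.0897), 2 (0.0834) or 3 (0.0533). With GC and full quantile offsets Ces3b passed at no single time (-0.59, -0.53 and -0.65, adjusted p = 0.0792, 0.142 and 0.0561), and at 10:30 it was at 0.0541 when only the groups compared were fitted.

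Ces3a stood at 2398, 2367 and 2238 CPM in WT and 1524, 1608 and 1835 CPM in α7HMZ liver at 10:30, with a log2 fold change of -0.49 ± 0.134 (adjusted p = 0.0162). At 13:30 the groups overlapped, at 1807, 1555 and 1551 CPM against 1579, 1635 and 1763 CPM (log2 fold change 0.02 ± 0.134), and they overlapped at 20:30 as well (-0.31 ± 0.134, adjusted p = 0.117). The 10:30 call ended without WT replicate 1 (0.055) or 2 (0.056) or α7HMZ replicate 2 (0.0552), and with GC and full quantile offsets, where the value was -0.14 (adjusted p = 0.497). On average the value was -0.26 ± 0.0774 (1.20-fold lower, adjusted p = 0.0174), which became -0.18 (adjusted p = 0.114) without the 4 libraries named above and 0.14 (adjusted p = 0.179) with GC and full quantile offsets. The Ces3a call thus depends on the libraries and on the scaling, while the average calls of Ces1e, Ces1g, Ces2a, Ces2c, Ces2e and Ces3b held under every other scaling, filter, library set and tool run. A further rule that also asked for a log2 difference of at least 1 in size kept Ces2c and Ces2e and left out the other members by their size.

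The second question was how the family differs between the 2 later times. In WT liver 5 members were higher at 20:30 than at 13:30 (11.6% of all genes) and 0 lower (9.97%). In α7HMZ liver 2 were higher (3.16%) and 0 lower (2.05%). Libraries of both times were on flow cell 377, whereas the 10:30 fed libraries were on flow cell 375, so 10:30 was not set against the later times.

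Ces1d showed the largest difference between these times. In WT it stood at 311, 318 and 344 CPM at 13:30 but at 944, 930 and 909 CPM at 20:30, a log2 fold change of 1.52 ± 0.167 (2.86-fold higher, adjusted p = 3.67e-05). In α7HMZ it stood at 601, 625 and 421 CPM and 824, 1082 and 860 CPM, a log2 fold change of 0.75 ± 0.165 (1.68-fold higher, adjusted p = 0.0122). Neither genotype showed overlap between the times. The α7HMZ call ended without α7HMZ fed 13:30 replicate 3 (adjusted p = 0.0675) or α7HMZ fed 20:30 replicate 2 (adjusted p = 0.0586).

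In WT liver Ces3b rose by 0.77 ± 0.216 on the log2 scale (1.70-fold, adjusted p = 0.0176), Ces1c by 0.41 ± 0.107 (1.33-fold, adjusted p = 0.0113), Ces3a by 0.40 ± 0.134 (adjusted p = 0.0411) and Ces1f by 0.38 ± 0.131 (adjusted p = 0.0455). The Ces3a and Ces1f calls were lost without the 4 libraries named above (adjusted p = 0.125 and 0.0846), which include WT fed 20:30 replicate 2, and the count was then 3. Leaving out single libraries left 2 to 5 members: the Ces1f call ended without any one of 13 libraries (adjusted p from 0.0508 to 0.134), that of Ces3a without any one of 10 (0.0501 to 0.183) and that of Ces3b without WT fed 13:30 replicate 2 or 3 or WT fed 20:30 replicate 2 (0.065 to 0.0836). The count was 3 with the replicate block and 1 with GC and full quantile offsets. Ces1g was higher at 20:30 in α7HMZ liver, where the libraries went from 81, 79.4 and 61.7 CPM to 103, 177 and 182 CPM (log2 fold change 1.05 ± 0.203, 2.08-fold, adjusted p = 0.00478). In WT the Ces1g times overlapped, with a log2 fold change of 0.25 ± 0.201. The Ces2 members were called in neither genotype with all libraries. Without the 4 libraries named above, α7HMZ fed 20:30 liver is left with replicate 2 alone, which held the most Ces2e of its group (11 CPM). The Ces2e log2 fold change in α7HMZ was then 0.90, against 0.39 with all (adjusted p = 0.333). The Ces1d call in α7HMZ liver was at 0.052 when only the groups compared were fitted.

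Whether the genotype difference itself varied with the time of day was tested over the 3 fed times. By edgeR's quasi-likelihood test 0 of the 10 members passed (4.99% of all genes did), 5 had an unadjusted p under 0.05, namely Ces1c, Ces1d, Ces1f, Ces1g and Ces3a (26.6% of all genes did), and the DESeq2 likelihood ratio test called 3 (13.5% of the genes it tested). The lowest adjusted p values were 0.0516 for Ces1f, 0.0551 for Ces1d and 0.0732 for Ces1c. Without α7HMZ fed 10:30 replicate 1, the library rich in Rn45s, these 3 passed at 0.0211, 0.0199 and 0.0387. Ces1d also passed without α7HMZ fed 13:30 replicate 3 (0.0383) or α7HMZ fed 20:30 replicate 2 (0.0452), and Ces1f without α7HMZ fed 10:30 replicate 3 (0.047) or α7HMZ fed 20:30 replicate 2 (0.0412). The higher levels of Ces1d and Ces1f in α7HMZ at 13:30, beside values that overlapped between the genotypes at the other times, are therefore not shown to depend on time by the test as planned, and the call turns on single libraries.

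**Figure D4:**
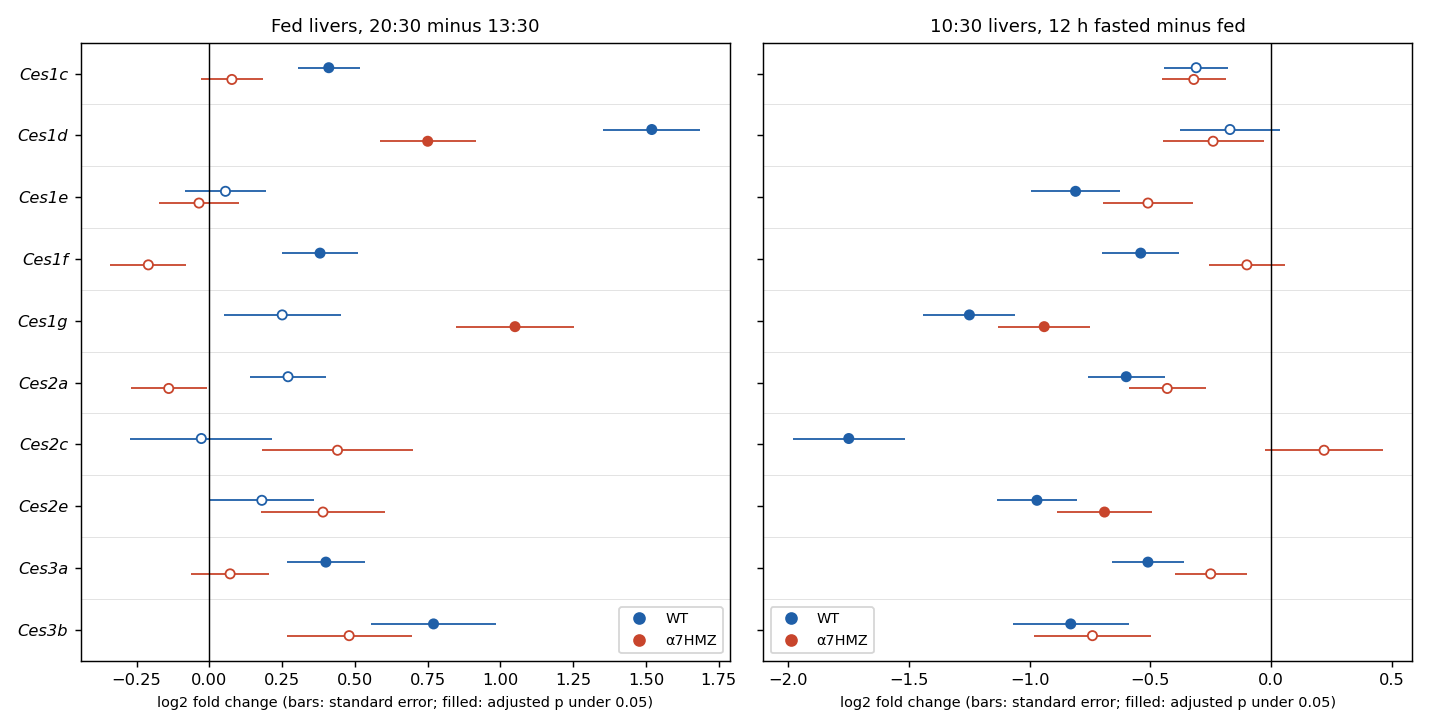
Difference between 20:30 and 13:30 (left) and between fasted and fed liver at 10:30 (right) for each member, as log2 fold change with bars of 1 SE to each side, filled points for an adjusted p under 0.05, WT in blue and α7HMZ in red. In WT mice Ces1d is highest at 20:30 against 13:30 (1.52), and after fasting Ces2c is lowest (-1.75) in WT while its value is 0.22 in α7HMZ mice.

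The third question was the response to 12 h without food at 10:30. In WT liver 8 of the 10 members were lower after fasting (10.6% of all 13103 genes tested) and 0 higher (12%), with a median log2 fold change of -0.70 for the members and 0.004 for all genes. These fasted and fed libraries shared flow cell 375. The WT fed 10:30 mice are the same as in the genotype comparison at that time.

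Ces2c had the largest fasting difference in WT liver. It went from 20.2, 18 and 22.2 CPM in fed to 5.14, 5.64 and 7.23 CPM in fasted mice, a log2 fold change of -1.75 ± 0.232 (3.36-fold lower, adjusted p = 2.07e-04). Ces1g went from 222, 244 and 255 CPM to 95.1, 110 and 99.9 CPM (-1.25 ± 0.191, 2.37-fold lower, adjusted p = 5.57e-04), and Ces2e from 202, 202 and 179 CPM to 102, 103 and 94.5 CPM (-0.97 ± 0.166, 1.95-fold lower, adjusted p = 0.00126). For all 3 genes the fed and fasted libraries were far apart.

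Ces1e was lower by 0.81 ± 0.185 on the log2 scale (adjusted p = 0.00732), with 123, 159 and 137 CPM in fasted WT mice, and Ces3b by 0.83 ± 0.241 (adjusted p = 0.0243), with 348, 564 and 502 CPM. Ces2a fell by 0.60 ± 0.159 (adjusted p = 0.0163), Ces1f by 0.54 ± 0.159 (adjusted p = 0.0262) and Ces3a by 0.51 ± 0.149 (adjusted p = 0.025). Leaving out single libraries left 4 to 8 members called. Ces1f, Ces2a, Ces3a and Ces3b each lost the call without WT fed 10:30 replicate 2 (adjusted p = 0.087, 0.0515, 0.079 and 0.0667) or without WT fasted replicate 1 (adjusted p = 0.0834, 0.0544, 0.0734 and 0.0791). WT fed 10:30 replicates 1 and 3 and WT fasted replicate 3 each ended 2 or 3 of these calls, with adjusted p from 0.0543 to 0.0782. The fasted WT libraries of Ces1c and Ces1d stood at 2096, 2418 and 2492 CPM and at 451, 628 and 604 CPM, and their log2 fold changes of -0.31 (2 SE from -0.57 to -0.043, adjusted p = 0.111) and -0.17 (-0.59 to 0.25) were not called. Ces1c passed by DESeq2 (0.0282), in 1 fit of all 24 libraries (0.0422) and with GC and full quantile offsets (0.0279).

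In α7HMZ liver 2 members were lower after fasting (5.9% of all genes) and 0 higher (6.68%), with a member median of -0.38. The fed libraries were on flow cell 375 and the fasted on flow cell 377, so that feeding and flow cell cannot be told apart in this genotype. Ces1g went from 112, 151 and 202 CPM to 64, 89 and 90.3 CPM (-0.94 ± 0.191, adjusted p = 0.00536). Ces2e went from 8.99, 5.93 and 8.85 CPM to 3.52, 6.15 and 4.96 CPM (-0.69 ± 0.197, adjusted p = 0.0348), values that overlapped and whose call ended without any one of 7 libraries, for instance at 0.0837 without α7HMZ fed replicate 1. Ces1e passed without α7HMZ fasted replicate 2 (-0.75, adjusted p = 0.017), and Ces3b without α7HMZ fed replicate 1 (-1.02, adjusted p = 0.00274) or WT fasted replicate 1 (-0.74, adjusted p = 0.0487). The count was 5 when all 24 libraries were fitted together, 4 by DESeq2 and 1 with the replicate block.

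Ces2c was the only member to pass a test of genotype by feeding, beside 0.252% of all genes. In α7HMZ mice it stood at 7.49, 3.66 and 4.81 CPM fed and 4.73, 7.41 and 6.23 CPM fasted, which overlapped (log2 fold change 0.22 ± 0.244, adjusted p = 0.609). The fasting response in α7HMZ differed from that in WT by 1.97 ± 0.335 on the log2 scale (adjusted p = 0.0295). Ces2d-ps, with which it shares reads, stood at 3.31, 2.73 and 4.33 CPM in WT fasted and 3.57, 4.71 and 4.1 CPM in α7HMZ fasted liver. It fell after fasting in WT (-1.44 ± 0.213) and rose in α7HMZ (0.85 ± 0.231, adjusted p = 0.0269), with a genotype by feeding value of 2.29 ± 0.313 (adjusted p = 0.0103). The Ces2c call ended with the replicate block (adjusted p = 0.0538) and without any one of 8 libraries, 5 of them fed (WT replicates 1, 2 and 3 and α7HMZ replicates 2 and 3, adjusted p from 0.0637 to 0.102) and 3 fasted (WT replicate 2, 0.099, and α7HMZ replicates 2 and 3, 0.0745 and 0.0539). Of these 4 groups only the α7HMZ fasted one was on flow cell 377, so the interaction and that flow cell cannot be told apart. For the other 9 members the difference between the fasting responses lay between -0.071 and 0.44 and no test passed.

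Set against each other in the fasted state, α7HMZ and WT liver differed in 4 members, all lower in α7HMZ (8.65% of all genes), and 0 were higher (6.9%). Here too genotype and flow cell cannot be told apart, and the hepatocyte marker sums given above were apart between these groups. Ces2e stood at 102, 103 and 94.5 CPM in WT and 3.52, 6.15 and 4.96 CPM in α7HMZ mice (-4.35 ± 0.198, 20.3-fold lower, adjusted p = 1.33e-08). Ces2a stood at 264, 345 and 387 CPM against 187, 241 and 181 CPM (-0.71 ± 0.16, adjusted p = 0.00897) and Ces1e at 123, 159 and 137 CPM against 79.7, 112 and 65.6 CPM (-0.71 ± 0.185, adjusted p = 0.0216). Ces3b was the fourth (-0.78 ± 0.241, adjusted p = 0.043). Leaving out single libraries left 2 to 4 called: Ces1e was lost without WT fasted replicate 2 (0.0937) or α7HMZ fasted replicate 1 (0.0636) or 3 (0.0717), and Ces3b without 8 of the 12 libraries, at 0.0583 to 0.163. With GC and full quantile offsets Ces3b was not called (-0.55, adjusted p = 0.13) and Ces1f was higher (0.54, adjusted p = 0.0223), and with only the groups compared Ces1e was at 0.0525. Ces2c, with 5.14, 5.64 and 7.23 CPM in WT and 4.73, 7.41 and 6.23 CPM in α7HMZ, had a difference of 0.029 (2 SE from -0.44 to 0.50).

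Other carboxylesterase genes were counted as well. Of 9 in the table, 5 passed the filter in fed liver. In the fed average 2 of these were higher in α7HMZ and 2 lower (13.3% and 13.2% of all genes). Ces1b, which neighbours Ces1c, was higher by 0.52 ± 0.111 on the log2 scale (adjusted p = 0.00159) and by 1.04 ± 0.194 at 13:30. Ces4a was higher by 0.94 ± 0.25 (adjusted p = 0.00881), and Ces2g lower by 0.24 ± 0.0611 (adjusted p = 0.00629), beside Ces2d-ps. Ces2b was not called in any comparison. The remaining 4 genes held at most 8 counts in any library and were not tested.

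Of 24 other ester and neutral lipid hydrolases of liver, 3 were higher and 8 lower in α7HMZ in the fed average (13.3% and 13.2% of all genes), with a median of -0.11 against -0.72 for the 10 members and 0.027 for all genes. The 2 with the smallest p in each direction were Ddhd2, a phospholipase (0.97 ± 0.117, adjusted p = 3.84e-06), and Pon3, a lactonase (0.32 ± 0.0614, adjusted p = 6.22e-04), which were higher, and Faah, the fatty acid amide hydrolase (-0.81 ± 0.0603, adjusted p = 8.24e-09), and Ephx2, soluble epoxide hydrolase (-0.67 ± 0.0643, adjusted p = 2.19e-07), which were lower. After fasting in WT liver, 9 of these hydrolases were higher and 2 lower (12% and 10.6% of all genes), with a median of 0.25 where the members' median was -0.70. In α7HMZ liver 8 were higher and 1 lower (6.68% and 5.9% of all genes). At 20:30 against 13:30, 9 were higher and 0 lower in WT (11.6% and 9.97% of all genes). In α7HMZ 0 passed at these times, where only 3.16% of all genes were higher and 2.05% lower.

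Among 17 genes for transcription factors with known links to carboxylesterase or drug metabolism genes, 4 were lower in α7HMZ in the fed average and 0 higher, beside 13.2% and 13.3% of all genes. They are named after their values were seen: Nr1i3, the constitutive androstane receptor (-3.72 ± 0.121, adjusted p = 7.39e-14), Nr1h3, or LXRα (-0.48 ± 0.0631), Nr0b2, the small heterodimer partner (-0.43 ± 0.122), and Ppara (-0.42 ± 0.109). In fasted against fed WT liver 2 of the 17 were higher and 1 lower, at or below the shares over all genes of 12% and 10.6%.

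For each member the 2 genes outside the family with the most similar course over the 24 libraries were listed, by Pearson's r of log2 CPM. These are descriptions over libraries that share groups, depth and, for the genotype, 2 clusters, and they say nothing of shared control. Ces2e was most like Scnn1a, a subunit of the epithelial sodium channel (r = 0.993, Spearman's rho = 0.903), and BC089597 (r = 0.988). Ces3b was most like Cyp2c70, an enzyme of bile acid synthesis (r = 0.964, rho = 0.959), and Acy1, an aminoacylase (r = 0.925). Ces2a was most like 2 cytochrome P450 genes, Cyp2c29 (r = 0.930) and Cyp2c44 (r = 0.928), and Ces1e like Pcmt1 (r = 0.926) and C8a, a complement component (r = 0.924). The other members had lower values: Ces2c with Alas2 (r = 0.877) and Dio1 (r = 0.857), Ces3a with Snx22 (r = 0.876) and Ppib (r = 0.863), Ces1g with AI182371 (r = 0.858) and Oxnad1 (r = 0.844), Ces1c with Ccdc57 (r = 0.854) and Mbl2 (r = 0.848), Ces1d with Gnptg (r = 0.775) and Tmem141 (r = 0.770), and Ces1f with Amn1 (r = 0.727) and Anxa4 (r = 0.705).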

How the data were processed

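Poly(A) RNA of 24 livers (8 groups of 3 mice) was sequenced as unstranded 75 bp single-end reads. The authors aligned the reads to mm10 with TopHat2 2.1.1, 1 unique alignment per read, and deposited the raw read counts per gene that HTSeq 0.6.1 gave, 1 column per mouse. Under this counting a read that fits 2 duplicated genes is lost or placed on 1 of them. The authors' FPKM files were not used.

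Counts were filtered with filterByExpr, scaled by TMM and fitted with the quasi-likelihood test of edgeR 4.0.16 in R 4.3.3, in 1 fit of the 18 fed libraries (13334 genes) and 1 fit of the 12 libraries taken at 10:30 (13103 genes), with Benjamini-Hochberg adjustment over all genes tested and a threshold of 0.05. Each SE was obtained from the fold change and the F statistic. All 10 members passed both filters. Python 3.11.15, numpy 2.4.6, pandas 2.3.3 and matplotlib 3.10.9 made the summaries and plots. The fits were tested on simulated data.

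The members, the gene lists and the 4 libraries left out together were chosen with earlier results of these data known. Named genes were all members, the carboxylesterase genes that passed the filter, the 2 hydrolases with the smallest p in each direction and the 2 genes most like each member. Intervals cover these libraries only, and nothing states whether mice of 1 group shared a litter or cage. No 2 libraries of a group were alike within sampling noise (chi-square per degree of freedom at least 11). Alternatives were other scalings, filters, library sets, thresholds and tools (DESeq2 1.42.0), GC and full quantile offsets (GC content known for 99.2% of genes), leaving out libraries and a replicate block. The authors normalized for GC content by loess within lanes and by full quantile between lanes, with EDASeq. The offsets here were computed separately and follow that kind of scaling. Gene positions and 75-base words came from a GRCm38 annotation, and promoters from RefSeq. Protein sequences were not used here.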

Additional observations from a re-analysis of the deposited data

Results flagged for a closer look

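The response of Ces2c to fasting differed between the genotypes by the test of the difference itself (genotype by feeding, edgeR, adjusted p = 0.0295). Ces2c was 3.36-fold lower in fasted than in fed WT liver, with all 3 fasted mice below all 3 fed mice, whereas its log2 fold change in α7HMZ liver was 0.22 with overlapping values. The α7HMZ fasted libraries were the only ones of the 4 groups on flow cell 377, and the genotype by feeding difference and the flow cell cannot be told apart. The call did not hold with the replicate number as a block (adjusted p = 0.0538), nor without any one of 8 of the 12 libraries (adjusted p from 0.0539 to 0.102).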

How the results depend on the processing

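The calls of Ces2e and Ces2c in the fed genotype comparisons held under every alternative run, and those of Ces1e under every one except the rule on a log2 difference of 1, below which its fed average of -0.94 lies. The averages ran between -4.77 and -4.54 for Ces2e and between -1.94 and -1.62 for Ces2c. Over all results, 1114 of 1180 values from alternatives other than leaving out 1 library kept their side of the threshold, 34 gained a call, 29 lost one and 3 changed sign, and a value that passed in neither setting was given no direction. Of 1740 values with 1 library left out, 1644 kept their side, 13 gained a call and 83 lost one. The cause of these changes was not tested.

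Signs turned with GC content and full quantile offsets for Ces1c at 20:30 (0.45, adjusted p = 0.00413), Ces1c in the fed average (0.40, adjusted p = 2.80e-05) and Ces3a in the fed average (0.14, adjusted p = 0.179). With these offsets 4 members were lower and 0 higher at 10:30, 4 lower and 3 higher at 13:30, and 4 lower and 1 higher at 20:30. In the fed average 6 were lower and 3 higher. At 20:30 against 13:30, 1 was higher in WT and 2 in α7HMZ, and 2 passed for genotype by time. After fasting, 9 were lower in WT and 3 in α7HMZ. In fasted α7HMZ against WT liver 3 were lower and 1 higher. Requiring a log2 difference of 1 or more in size as well left 2 lower at 10:30, 0 higher and 3 lower at 13:30, 3 lower at 20:30, 2 lower in the fed average, 1 between the times in WT and 1 in α7HMZ, 2 lower after fasting in WT and 0 in α7HMZ, and 1 lower in fasted α7HMZ against WT liver, by construction of the rule.

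Smaller shifts of the member counts under the other settings are not listed. Upper quartile scaling gave 1 member higher in the fed average and 2 for genotype by time, and a minimum of 50 counts in 3 libraries gave 2 for genotype by time. No filter, all 24 libraries in 1 fit, and leaving out the 4 libraries each gave 3 members higher at 20:30 in WT. DESeq2 gave 3 for genotype by time. Leaving out the 4 libraries is not read for that test, since it left α7HMZ fed 20:30 with replicate 2 alone. With only the groups compared, 1 member was higher at 20:30 in α7HMZ and 1 lower after fasting in α7HMZ, where all 24 libraries gave 5 and DESeq2 4.

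Replicate numbers did not pair the libraries: deviations of same-numbered libraries from their group means had a median correlation of -0.00635 (range -0.314 to 0.333), against 0.0108 for other numbers, and 7 of 24 correlated best with their own number. With the number as a replicate block, 3 members were higher at 20:30 in WT, 1 was lower after fasting in α7HMZ and 0 passed for genotype by feeding (Ces2c, adjusted p = 0.0538).

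With each library left out in turn, the counts were 5 to 7 lower at 10:30, 4 to 6 lower at 13:30, 0 to 2 higher in the fed average, 2 to 5 higher at 20:30 in WT and 1 to 2 in α7HMZ, 0 to 3 for genotype by time, 4 to 8 lower after fasting in WT and 1 to 3 in α7HMZ, 2 to 4 lower in fasted α7HMZ against WT liver, and 0 to 1 for genotype by feeding. With 3 mice a group, differences of small size can be missed, and a value that was not called is not shown to be equal.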
